A study of Homo sapiens with 95 samples.

Results

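The 9 genes described here make or load the MHC class I molecule and were taken by symbol from the 23895 genes listed in every well: the heavy chains HLA-B, HLA-C, HLA-E and HLA-F, the light chain B2M, the peptide transporter subunits TAP1 and TAP2, the chaperone TAPBP and the aminopeptidase ERAP1. They were measured by 3′ digital gene expression (3′DGE), which reads the 3′ end of polyadenylated transcripts and counts each unique molecular identifier (UMI), a tag put on each captured molecule, a single time per gene. The cells were AALE, an immortalized line of human bronchial epithelium, in 95 wells of 8 populations. NRF2, FGFR1, NRG1 and PIK3CA were overexpressed, with cells carrying a vector for the reporter HcRed as their control. FAT1 and CDKN2A were knocked out with CRISPR, with cells given the Cas9-EGFP plasmid and no guide RNA (called GFP) as their control. Wells received the vehicle DMSO, a condensate of cigarette smoke (CSC) at 24 µg/ml, the polycyclic hydrocarbon benzo[a]pyrene (BaP) at 173 µM, or NNK, a nitrosamine of tobacco, at 490 µM. The labels do not say whether a population is 1 clone or a pool, so a difference between populations is a difference between those cultures.

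Nucleated cells use MHC class I to display fragments of their own proteins to CD8 T cells. The proteasome cuts proteins into peptides, TAP1 and TAP2 together carry the peptides into the endoplasmic reticulum, ERAP1 trims them there, and TAPBP (tapasin) holds the empty heavy chain beside the transporter until it binds a peptide. The peptide-loaded heavy chain reaches the cell surface bound to beta-2-microglobulin, the B2M product. HLA-B and HLA-C are classical and highly polymorphic heavy chains, while HLA-E and HLA-F vary little between people and bind receptors of natural killer cells. Interferons raise most genes of this pathway, and airway epithelium uses them in the response to viruses.

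Comparisons used the 82 wells whose replicate number has 1 digit. In these wells total counts ran from 692446 to 1895735, with medians of 1426281 under DMSO, 1318389 under CSC, 1255412 under BaP and 1171387 under NNK. Levels are given as CPM, the UMI counts of a gene divided by the total of its well and put on a scale shared by all wells. All 7 markers of airway basal epithelium had counts in every well, with a summed level of 314 to 946 CPM. Of the 6 markers of leukocytes and antigen presenting cells, CD3E was at 0 in 82 wells and PTPRC in 78. HLA-DRA was at 0 in 72 wells and CD74 in 63. LYZ was at 0 in only 2 wells, with at most 8.52 CPM, and CD68 had counts in every well. The list summed to 9.57 to 43.99 CPM. Of the 5 fibroblast markers, COL1A2, COL3A1 and PDGFRB were each at 0 in 81 of the 82 wells. COL1A1 was at 0 in 32 wells and DCN in 8, with DCN at a median of 2.36 and at most 15.8 CPM. NNK replicate 2 of NRG1 stood apart: its counts differed from those of its fellow wells by a chi-square per degree of freedom of 11.3 and 11.8, against 1.13 to 2.90 for the other 74 pairs of replicates. Every plate row held wells of 1 chemical and the wells of a group sat side by side in 1 row, so effects of chemical and of population cannot be told apart from position on the plate. In bulk wells, fewer cells of a type and less RNA per cell cannot be told apart.

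All but B2M and ERAP1 lie on chromosome 6, in or beside the MHC. In hg19 coordinates, HLA-B spans chr6:31321649-31334844 on the minus strand, HLA-C chr6:31236526-31239907 on the minus strand, HLA-E chr6:30457286-30461971 on the plus strand and HLA-F chr6:29690552-29706305 on the plus strand. TAP1 spans chr6:32812986-32821593, TAP2 chr6:32789610-32806516 and TAPBP chr6:33267471-33282061, all on the minus strand. B2M spans chr15:45003556-45011049 on the plus strand and ERAP1 chr5:96096514-96143803 on the minus strand. Exons of HLA-F overlap those of the antisense gene HLA-F-AS1 over up to 257 bases, and exons of ERAP1 overlap those of CAST on the other strand over up to 200 bases. Whether the counting used strand is not given in the sources used here, so counts of HLA-F and ERAP1 may include reads of their partners. Heavy-chain genes share long near-identical stretches and only UMIs matching a single gene were counted, so the level of HLA-B, HLA-C, HLA-E and HLA-F is uncertain and no level is compared between genes.

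Promoter windows, from 250 bases before to 50 after the transcription start, were found for 8 of the 9 genes in RefSeq (GRCh38.p14). HLA-E had none. The windows were searched for 5 short motifs linked to induction or basal transcription of this family. TAP1 and ERAP1 had 2 windows each, and a gene was counted if any of its windows matched, while the shares over all windows are per window. The core of the interferon-stimulated response element, GAAA and GAAA with any 2 bases between, on either strand, was present in 6 of the 8 genes (HLA-F, B2M, TAP1, TAP2, TAPBP and ERAP1) and in 3.57% of all 35116 windows. An NF-kB core, GGGA, any base, T, any 2 bases and CC, on either strand, was present in 4 of the 8 (HLA-B, HLA-C, B2M and TAP1) and in 5.13% of all windows. The CCAAT box, CCAAT on either strand, was present in 6 of the 8 and in 34.6% of all windows. The gamma-activated sequence, TTC and GAA with any 3 bases between, was present in 1 of the 8 and in 7.66% of all windows, and TGACG, a core like that of the X2 box, on either strand, in 4 of the 8 and in 24.6%. Matches to either of the first 2 cores are in capitals below (neighbouring matches overlap). Shown are the windows of 4 of the 8 genes, 5′ to 3′ on the strand of the gene. They are HLA-B at chr6:31357130-31357429 (minus strand), HLA-F at chr6:29723184-29723483 (plus strand), B2M at chr15:44711267-44711566 (plus strand) and TAPBP at chr6:33314029-33314328 (minus strand), all in GRCh38.p14. A match is a run of letters and not a measured binding site.
HLA-B: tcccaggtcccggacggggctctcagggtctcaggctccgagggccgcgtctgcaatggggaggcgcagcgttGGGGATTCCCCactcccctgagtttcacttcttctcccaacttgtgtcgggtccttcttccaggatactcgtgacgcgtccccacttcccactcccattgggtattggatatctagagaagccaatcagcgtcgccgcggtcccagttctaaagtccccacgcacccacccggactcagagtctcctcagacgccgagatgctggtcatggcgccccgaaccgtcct
HLA-F: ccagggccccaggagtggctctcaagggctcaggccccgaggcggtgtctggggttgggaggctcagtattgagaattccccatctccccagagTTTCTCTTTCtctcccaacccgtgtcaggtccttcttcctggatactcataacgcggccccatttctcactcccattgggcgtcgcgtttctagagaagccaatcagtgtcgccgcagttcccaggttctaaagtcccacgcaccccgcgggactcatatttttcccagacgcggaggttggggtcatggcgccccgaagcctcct
B2M: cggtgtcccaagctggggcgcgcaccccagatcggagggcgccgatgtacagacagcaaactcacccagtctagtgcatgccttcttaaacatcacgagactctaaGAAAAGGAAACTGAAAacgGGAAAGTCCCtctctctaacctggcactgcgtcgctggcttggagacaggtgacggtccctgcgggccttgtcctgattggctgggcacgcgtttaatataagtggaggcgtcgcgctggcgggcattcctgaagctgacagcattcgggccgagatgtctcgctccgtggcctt
TAPBP: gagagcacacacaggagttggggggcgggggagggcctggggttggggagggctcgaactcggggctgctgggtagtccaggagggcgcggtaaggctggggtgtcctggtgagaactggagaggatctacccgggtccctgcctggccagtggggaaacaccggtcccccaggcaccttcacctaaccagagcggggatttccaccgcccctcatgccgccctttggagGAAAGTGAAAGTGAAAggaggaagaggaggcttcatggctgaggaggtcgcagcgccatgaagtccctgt

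Under DMSO the populations differed most visibly in HLA-B, B2M and TAPBP. HLA-B, a classical heavy chain, averaged 17.6 ± 3.84 CPM (SD, n = 3) in FGFR1, followed by NRG1 at 11.8 ± 1.95, CDKN2A at 9.09 ± 0.919, HcRed at 6.95 ± 2.90, FAT1 at 5.51 ± 3.98, NRF2 at 5.37 ± 1.85, PIK3CA at 5.35 ± 2.39 and GFP at 5.05 ± 0.863. In that order only NRG1 and CDKN2A were neighbours whose wells did not overlap. HLA-C, the other classical heavy chain, was also highest in FGFR1, at 29.0 ± 5.55 CPM, above every well of HcRed (21.04 ± 2.98), the next population. It averaged 20.5 CPM in PIK3CA, 17.9 in CDKN2A, 17.7 in GFP, 16.4 in NRF2, 16.3 in NRG1 and 12.7 in FAT1, each overlapping its neighbours.

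The nonclassical chains were lowest in FAT1. HLA-E averaged 22.01 ± 2.34 CPM in GFP, 19.7 in HcRed, 17.2 in NRF2, 16.9 in CDKN2A, 16.7 in NRG1, 16.2 in FGFR1, 14.3 in PIK3CA and 11.5 ± 4.53 in FAT1. HLA-F averaged 6.66 ± 0.690 CPM in FGFR1, 6.51 in HcRed, 6.26 in GFP, 4.86 in CDKN2A, 4.49 in NRF2, 4.25 in PIK3CA, 2.96 in NRG1 and 2.33 ± 1.06 in FAT1. For both genes every neighbour in the order overlapped.

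B2M had 2432 to 6222 UMIs in a well and was the most precisely measured of the 9. It averaged 4062 ± 260 CPM in FGFR1, 3483 ± 144 in GFP, 3395 ± 166 in FAT1, 3262 ± 80.5 in PIK3CA, 3202 ± 15.6 in NRF2, 3049 ± 81.0 in NRG1, 3007 ± 126 in HcRed and 2969 ± 298 in CDKN2A. FGFR1 stood above every GFP well and NRF2 above every NRG1 well, while other neighbours overlapped.

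The transporter and trimming genes were sparse. TAP1 averaged 6.60 CPM in CDKN2A, 6.25 in HcRed, 5.50 in FGFR1, 5.12 in GFP, 3.30 in PIK3CA, 3.19 in NRG1, 2.92 in NRF2 and 1.44 in FAT1, from 1 to 16 UMIs a well. TAP2 averaged 4.63 CPM in PIK3CA, 3.83 in HcRed, 2.35 in FGFR1, 2.16 in GFP, 1.26 in NRG1, 1.25 in CDKN2A, 1.03 in FAT1 and 0.923 in NRF2, and 9 of the 82 wells had no TAP2 count. ERAP1 averaged 6.15 CPM in FAT1, 5.57 in NRF2, 4.91 in PIK3CA, 4.91 in FGFR1, 4.54 in GFP, 4.46 in CDKN2A, 3.42 in NRG1 and 2.90 in HcRed. No neighbours in these 3 orders were apart. In the 21 comparisons described below limma and DESeq2 called these 3 genes 0 times and edgeR called TAP1 in 1, while TAP1 was under an unadjusted p of 0.05 in 5, ERAP1 in 3 and TAP2 in 0.

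TAPBP averaged 85.0 ± 13.6 CPM in GFP, 66.2 ± 6.86 in FGFR1, 62.4 ± 1.89 in HcRed, 60.6 ± 6.35 in PIK3CA, 55.0 ± 6.65 in NRF2, 52.2 ± 1.63 in NRG1, 42.6 ± 2.85 in FAT1 and 38.3 ± 5.44 in CDKN2A. GFP lay above all other populations, and both knockout populations lay below every other well under DMSO.

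**Figure D1:**
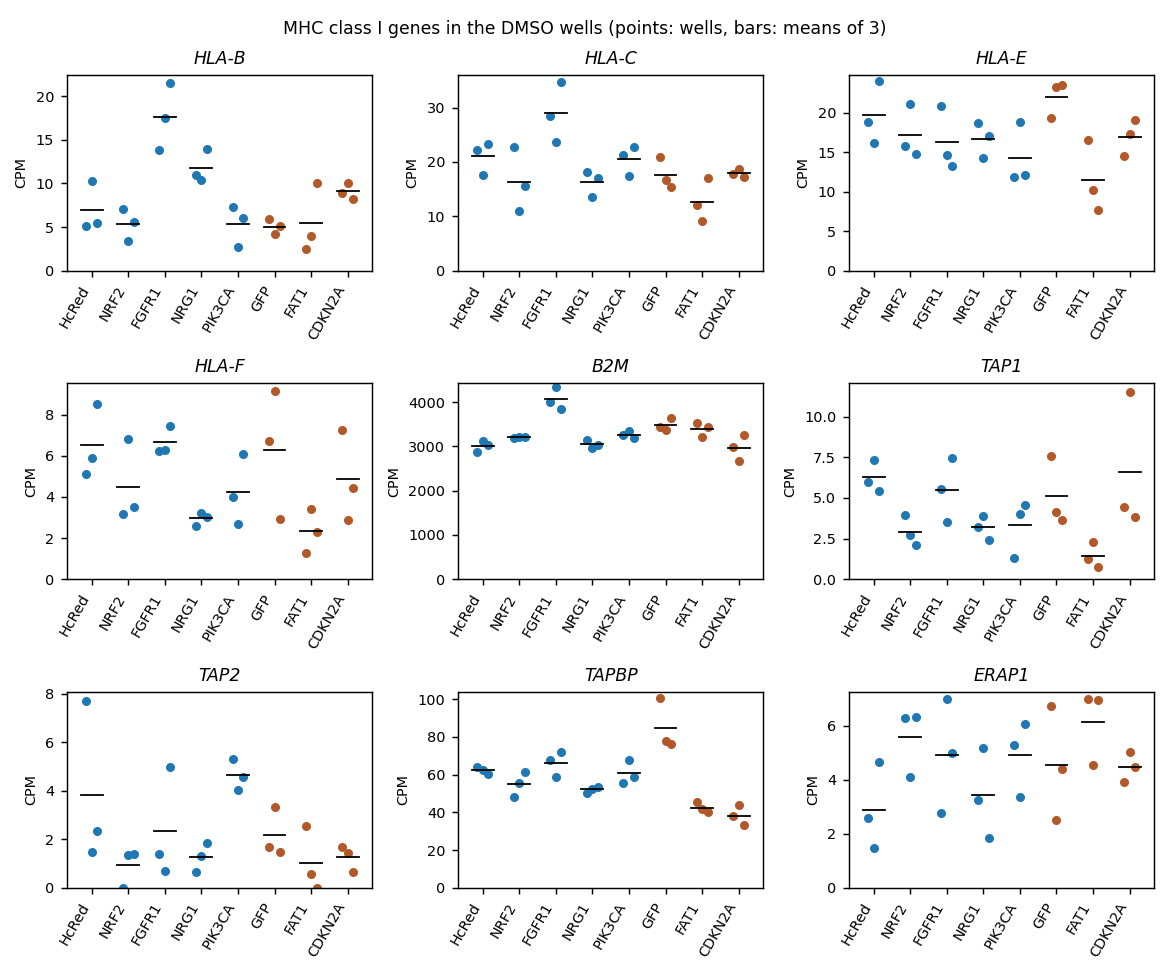
CPM (y axis, from 0) of the 9 genes in the DMSO wells of the 8 populations (x axis). Points are wells and bars means of 3, with overexpression populations and HcRed in blue and GFP and the knockouts in brown. HLA-B and HLA-C are highest in FGFR1, TAPBP is highest in GFP and lowest in FAT1 and CDKN2A, and the wells of TAP1, TAP2 and ERAP1 scatter widely.

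The populations were then compared with their controls by limma-voom across all genes whose mean count exceeded 1, with a threshold of 0.05 on the Benjamini-Hochberg adjusted p. A log2 difference below is from that fit. All 9 genes were tested by limma in every comparison, and comparisons with HcRed share its wells. DESeq2, run beside it, gave no adjusted p to genes that its own filter on low counts set aside, from 1 to 8 of the 9 where it did so.

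FGFR1 cells, which overexpress a receptor tyrosine kinase for fibroblast growth factors, had more HLA-B and B2M transcript than HcRed cells. HLA-B was at 13.9, 17.5 and 21.5 CPM in the FGFR1 wells and at 5.13, 10.3 and 5.42 CPM in the HcRed wells, without overlap, a log2 difference of 1.30 (SE 0.34, adjusted p = 0.0251). B2M was at 4008, 4345 and 3833 CPM against 2867, 3113 and 3040 CPM, again without overlap, a log2 difference of 0.42 (SE 0.08, adjusted p = 1.48e-05). These were 2 of 9 genes past the threshold, where 0.914% of all genes tested were. That share was 0.465% without HcRed replicate 1, 0.443% without HcRed replicate 2, 0.528% without HcRed replicate 3, 0.539% without FGFR1 replicate 1 and 2.92% without FGFR1 replicate 3. HLA-C missed it, with a log2 difference of 0.44 (95% interval -0.01 to 0.90, adjusted p = 0.583). Genes that cut peptides for MHC class I were higher too: 4 of 5 tested genes of the immunoproteasome and its activator rose, namely PSMB8 (log2 difference 0.96) and PSMB9 (1.505), the inducible catalytic subunits, and PSME1 (0.57) and PSME2 (0.43), the subunits of the PA28 activator. Their median was 0.57, against 0.01 over all genes. Of 8 interferon response genes, ISG15 (1.03), IFIT1 (1.13) and IFIT3 (1.24) rose. DESeq2 did not call ISG15 (adjusted p = 0.206) or IFIT1 (0.0787) and gave PSMB9 no adjusted p. Of the 5 peptide loading and editing genes (CALR, CANX, PDIA3, TAPBPL, ERAP2) 0 passed the threshold in limma, edgeR or DESeq2 (which gave 3 of them no adjusted p), with 2 under an unadjusted p of 0.05. Of the 6 tested regulators of class I transcription 0 passed in the same tools (4 without an adjusted p in DESeq2), with 0 under an unadjusted p of 0.05. The HLA-B call was lost when HcRed replicate 1 (adjusted p = 0.277), replicate 2 (adjusted p = 0.0509) or replicate 3 (0.234) or FGFR1 replicate 2 (0.0888) was left out, and in the single fit over all groups (0.0950) and over all chemicals (0.0613). DESeq2 gave HLA-B no adjusted p (unadjusted p = 0.00548). The summed basal epithelial markers were 620 to 687 CPM in FGFR1 and 806 to 842 CPM in HcRed, and their part in these results was not tested.

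In the NNK wells, which the DMSO comparison did not use, B2M of FGFR1 was at 4347, 4605 and 4292 CPM against 3547, 3363 and 3158 CPM in HcRed, a log2 difference of 0.40 (SE 0.05, adjusted p = 5.79e-10). HLA-B was at 10.6, 7.84 and 4.33 CPM against 12.7, 7.14 and 4.24 CPM, overlapping, with a log2 difference of 0.07 (95% interval -0.77 to 0.91). B2M was thus the 1 gene of 9 past the threshold, against 1.52% of all genes. The difference in HLA-B between FGFR1 under DMSO and under NNK was not tested. PSMB8 (0.85), PSME1 (0.50), PSME2 (0.49), IFIT1 (1.59) and IFIT3 (1.13) rose there as well, though DESeq2 gave PSMB8, IFIT1 and IFIT3 no adjusted p. Over all genes the count fell from 161 to 105 without NNK replicate 2 of HcRed and to 93 without NNK replicate 1 of FGFR1.

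Of the 9 genes B2M alone passed in the other overexpression populations, with small differences from HcRed. In NRF2 cells, which carry the regulator of the oxidant response, B2M was at 3185, 3205 and 3215 CPM, above all HcRed wells, with a log2 difference of 0.18 (SE 0.03, adjusted p = 3.22e-07). In PIK3CA cells, which carry the catalytic subunit of a PI3 kinase, it was at 3261, 3344 and 3183 CPM, also above all HcRed wells, with a log2 difference of 0.18 (SE 0.03, adjusted p = 1.90e-05). In NRG1 cells, which carry a ligand of ERBB receptors, it was at 3134, 2973 and 3041 CPM, overlapping HcRed, with a log2 difference of 0.09 (SE 0.03, adjusted p = 0.0230). That is 1 of 9 genes in each, where 4.91% of all genes passed for NRF2, 5.40% for PIK3CA and 3.08% for NRG1 (349 genes, against 220 without HcRed replicate 2 and 204 without NRG1 replicate 1). The NRG1 call was lost without HcRed replicate 1 (adjusted p = 0.216), NRG1 replicate 1 (0.257) or NRG1 replicate 3 (0.0688). It was also lost by edgeR and DESeq2. Over all chemicals, here DMSO and NNK, the log2 difference from limma was -0.08 (adjusted p = 0.970). That fit includes NNK replicate 2 of NRG1, the well that stood apart. HLA-B of NRG1 was at 10.99, 10.4 and 14.0 CPM, above all HcRed wells, but missed the threshold. Of the immunoproteasome list, PSME2 (0.24) rose in NRF2, PSMB8 (0.66) and PSME2 (0.42) rose in PIK3CA, and in NRG1 0 of 5 passed in limma, edgeR or DESeq2 (3 without an adjusted p in DESeq2), with 1 under an unadjusted p of 0.05. Of the interferon response genes, IFI27 fell in NRF2 (-2.26) and in PIK3CA (-0.67) and rose in NRG1 (0.71). DESeq2 did not call it in PIK3CA (adjusted p = 0.0945) and gave it no adjusted p in NRF2 and NRG1. In a single fit over all groups, which pools the spread of every population, B2M missed the threshold in NRF2 (adjusted p = 0.455), PIK3CA (0.374) and NRG1 (0.761). The single fit also includes NNK replicate 2 of NRG1. The summed fibroblast markers were 6.46 to 15.8 CPM in NRG1 and 5.96 to 10.1 CPM in PIK3CA against 1.47 to 4.28 CPM in HcRed, and the summed basal markers 371 to 442 and 375 to 464 CPM against 806 to 842 CPM. The summed leukocyte markers were 16.2 to 16.5 CPM in NRF2 against 19.1 to 22.5 CPM in HcRed. The part of these markers in the results was not tested.

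Wells under CSC and NNK gave the same B2M direction for NRF2 and PIK3CA. The log2 difference was 0.10 (SE 0.02, adjusted p = 0.00518) for NRF2, as 1 of 9 genes against 6.47% of all genes, and the call was lost without CSC replicate 2 of HcRed (adjusted p = 0.0575), by edgeR (0.133), by DESeq2 (0.0644) and in the single fit over all groups (0.566). It was 0.14 (SE 0.02, adjusted p = 1.44e-05) for PIK3CA, as 1 of 9 genes against 8.06%, a call lost in the single fit (adjusted p = 0.363). In these wells too IFI27 was lower in NRF2 (-2.15) and in PIK3CA (-0.996), where PSMB8 (0.54), PSME2 (0.38) and ISG15 (0.84) were higher, all past the threshold. For NRG1 under NNK none of 9 genes passed in limma, edgeR or DESeq2, 1 of 9 was under an unadjusted p of 0.05, and 0.116% of all genes passed. The NNK wells of NRG1 include replicate 2, the well that stood apart, with 30.5 CPM of HLA-B and 40.0 of HLA-C against 8.81 and 8.26 and against 18.3 and 19.0 in its fellow wells, and with 2610 CPM of B2M against 3319 and 3356. Without it the count stayed at 0 of 9, where 1.04% of all genes passed. That share was 0.0619%, 0.0622% and 0.0708% without NNK replicates 1, 2 and 3 of HcRed.

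**Figure D2:**
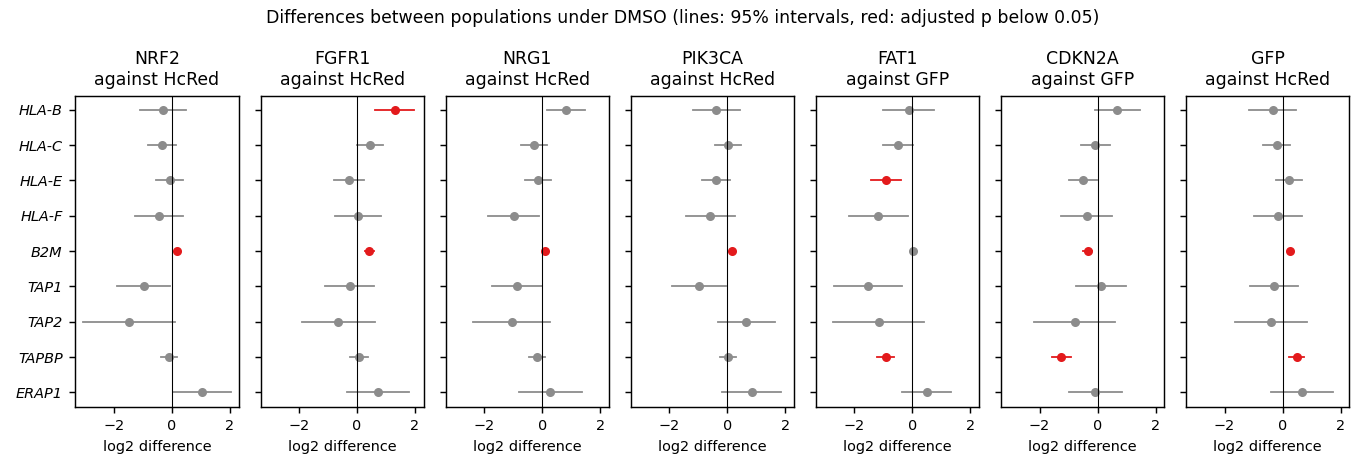
Log2 differences (x axis) of the 9 genes in 7 comparisons of populations under DMSO, with 95% intervals as lines and genes past an adjusted p of 0.05 in red. B2M is past the threshold in 6 of the 7 panels with narrow intervals, TAPBP falls in FAT1 and CDKN2A, and HLA-B is past it in FGFR1 alone.

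The knockout populations had less TAPBP than the GFP control. FAT1 encodes a giant protocadherin, and its TAPBP level was 45.7, 41.9 and 40.1 CPM against 101, 78.1 and 76.2 CPM in GFP, a log2 difference of -0.92 (SE 0.15, adjusted p = 4.96e-07). HLA-E was at 16.5, 10.2 and 7.71 CPM against 19.3, 23.3 and 23.5 CPM, a log2 difference of -0.91 (SE 0.26, adjusted p = 0.00961). For both genes the wells of FAT1 and GFP did not overlap. These 2 of 9 genes fell and none rose, where 14.1% of all genes passed the threshold, and the median of the 9 was -0.91 against -0.01 over all genes. TAP1 was at 1.27, 2.27 and 0.772 CPM against 7.55, 4.15 and 3.67 CPM, without overlap, but rested on 1 to 4 UMIs a FAT1 well and missed the threshold. B2M was at 3532, 3210 and 3443 CPM, overlapping GFP. The HLA-E call was lost without FAT1 replicate 2 (adjusted p = 0.0619) or replicate 3 (0.0861) and by DESeq2 (0.0969).

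The FAT1 difference was present in the CSC, BaP and NNK wells, which the DMSO comparison did not use. There 4 of 9 genes fell and none rose: TAPBP by 0.82 (SE 0.08, adjusted p = 1.81e-12), HLA-E by 0.89 (SE 0.14, adjusted p = 3.58e-07), HLA-C by 0.56 (SE 0.17, adjusted p = 0.00799) and HLA-F by 1.38 (SE 0.38, adjusted p = 0.00381) on the log2 scale. Of all genes 27.8% passed the threshold. Over all chemicals TAPBP ran from 40.1 through a median of 45.5 to 54.6 CPM in the 12 FAT1 wells and from 62.7 through 88.1 to 103.5 CPM in the 12 GFP wells, without overlap. HLA-E ran from 7.71 through 13.4 to 23.6 CPM in FAT1 and from 19.3 through 27.3 to 32.4 CPM in GFP, with an overlap between 19.3 and 23.6. HLA-F ran from 0 through 1.88 to 5.76 CPM against 2.13 through 5.04 to 9.14 CPM, overlapping, and its call was lost by DESeq2 (adjusted p = 0.0800).

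Interferon response genes moved the other way in FAT1 cells. Of 7 tested under DMSO, 5 rose and none fell: ISG15 (log2 difference 2.03), IFI27 (3.43), IFIT1 (3.03), IFIT3 (2.48) and IFI44L, which had no count in the GFP wells and 3.86 to 6.35 CPM in FAT1, at least 2.64 higher on the log2 scale against a floor of 3 counts over the group. The median of the list was 2.48, also with IFI44L at that bound. IFIT1, for example, was at 44.8 to 56.1 CPM in FAT1 and 4.40 to 10.9 CPM in GFP. Against the HcRed wells, IFI27 of FAT1 (41.9 to 57.2 CPM) overlapped (35.1 to 44.1 CPM), while ISG15, IFIT1 and IFIT3 of FAT1 lay above all of them. Of the immunoproteasome list PSMB9 (1.49) and PSME2 (0.29) rose. Of 6 tested ligands of lymphocyte receptors, MICA (-0.87) and ULBP2 (-0.49), ligands of the activating receptor NKG2D, fell, ULBP2 not by DESeq2 (adjusted p = 0.122), which gave PSMB9 and IFI44L no adjusted p. Against HcRed under DMSO, MICA of FAT1 (53.8 to 66.35 CPM) also lay below every well (86.0 to 101.8 CPM). ULBP2 of FAT1 (36.8 to 53.3 CPM) instead lay above every HcRed well (26.5 to 33.4 CPM). In the CSC, BaP and NNK wells ISG15, IFI6, IFI27, IFIT1, IFIT3 and IFI44L rose, 6 of 7, as did PSMB9 (0.88) and PSME2 (0.13), while MICA (-0.88) and ULBP2 (-0.72) fell again. Also there, CALR, the calreticulin chaperone, fell (-0.47) and TAPBPL, a tapasin relative that edits peptides, rose (1.66). TAPBPL was sparse. Under DMSO, where it missed the threshold, it was at 0.772 to 1.70 CPM in FAT1 and 0 to 0.831 CPM in GFP. Of 6 tested regulators of class I transcription 0 passed the threshold in limma, edgeR or DESeq2 in either set of wells (2 without an adjusted p in DESeq2 under DMSO), with 2 under an unadjusted p of 0.05 under DMSO and 1 in the other wells. The summed basal markers were 369 to 411 CPM in FAT1 and 548 to 660 CPM in GFP, and the summed leukocyte markers 12.7 to 13.6 and 10.1 to 14.7 CPM. The part of the basal markers in these results was not tested.

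**Figure D3:**
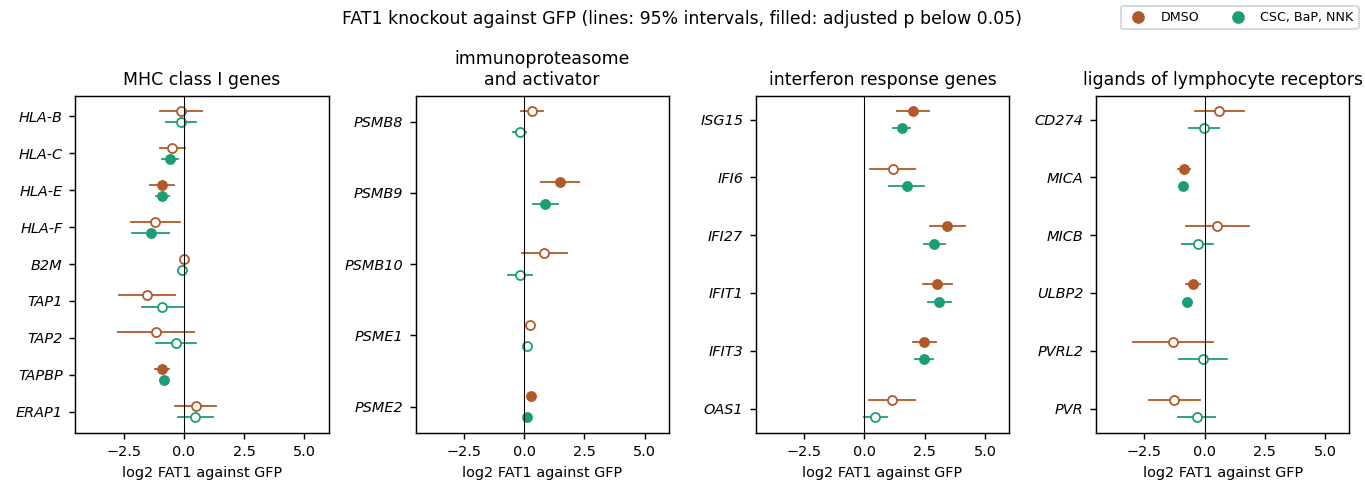
Log2 difference of FAT1 against GFP (x axis) for the MHC class I genes and 3 other lists, under DMSO (brown) and in the CSC, BaP and NNK wells (green), with 95% intervals, filled where the adjusted p was below 0.05. TAPBP and HLA-E lie left of 0 and ISG15, IFI27, IFIT1 and IFIT3 right of 0 in both sets (IFI44L is left out because GFP had no count under DMSO).

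CDKN2A encodes the p16INK4a and p14ARF tumour suppressors. TAPBP in these cells was at 37.9, 43.9 and 33.1 CPM, below all GFP wells, a log2 difference of -1.25 (SE 0.17, adjusted p = 5.09e-09). B2M was at 2975, 2669 and 3264 CPM against 3439, 3367 and 3644 CPM, a log2 difference of -0.34 (SE 0.08, adjusted p = 0.000701), which was lost without GFP replicate 3 (adjusted p = 0.0567). The 2 of 9 genes both fell, where 17.9% of all genes passed the threshold. HLA-E, at 14.5, 17.3 and 19.1 CPM, lay below all GFP wells and missed the threshold. PSME1 (-0.86) and PSME2 (-0.37) fell, while IFNGR1 (0.56), a chain of the interferon gamma receptor, and ISG15 (1.17, lost by DESeq2 with an adjusted p of 0.0864) and IFI27 (1.67) rose. The summed leukocyte markers were 17.3 to 22.2 CPM in CDKN2A and 10.1 to 14.7 CPM in GFP, without overlap, and the summed basal markers 434 to 564 and 548 to 660 CPM. Their part in these results was not tested. Only 2 BaP wells and 1 NNK well had 1-digit numbers, with TAPBP at 47.5 and 20.2 CPM under BaP and 38.4 CPM under NNK, so no repeat test was made.

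The 2 controls also differed from each other, which bears on both knockout comparisons. TAPBP was at 101, 78.1 and 76.2 CPM in GFP and 64.2, 62.5 and 60.4 CPM in HcRed, a log2 difference of 0.48 (SE 0.14, adjusted p = 0.0142), lost without GFP replicate 1 (adjusted p = 0.150) and by DESeq2 (adjusted p = 0.0556). B2M was 0.26 higher on the log2 scale (SE 0.03, adjusted p = 9.74e-11), with no overlap between wells, a call lost in the single fit over all groups (adjusted p = 0.0942). They were 2 of 9 genes, where 10.8% of all genes passed. Against HcRed rather than GFP, TAPBP of FAT1 and of CDKN2A still lay below every well under DMSO (at most 45.7 CPM against at least 60.4 CPM), while HLA-E overlapped HcRed at 16.2 to 24.0 CPM in both. B2M of CDKN2A (2669 to 3264 CPM) overlapped HcRed (2867 to 3113 CPM). ISG15 of CDKN2A (12.3 to 15.3 CPM) overlapped it too (9.41 to 19.1 CPM), and IFI27 of CDKN2A (13.4 to 18.0 CPM) lay below it (35.1 to 44.1 CPM). PSME1 and PSME2 of CDKN2A still lay below every HcRed well and IFNGR1 above. PSMB8 (-0.86), ISG15 (-1.18) and IFI27 (-3.02) were lower in GFP than in HcRed, and ULBP2 (1.15) was higher. DESeq2 gave ISG15 no adjusted p. The summed basal markers were 548 to 660 CPM in GFP and 806 to 842 CPM in HcRed, and the summed leukocyte markers 10.1 to 14.7 and 19.1 to 22.5 CPM, both without overlap. Their part in these results was not tested.

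In the CSC and NNK wells 4 of 9 genes differed between the controls, against 16.7% of all genes. B2M (0.23, SE 0.03, adjusted p = 2.23e-07), TAPBP (0.40, SE 0.10, adjusted p = 0.00257) and HLA-E (0.51, SE 0.17, adjusted p = 0.0348) were higher in GFP and HLA-B (-1.19, SE 0.37, adjusted p = 0.0175) was lower. The HLA-B call was lost without CSC replicate 2 of HcRed (adjusted p = 0.0540) or NNK replicate 1 of GFP (0.0778). The HLA-E call was lost in 7 of 12 fits that left out a well: CSC replicate 2 (0.0555) or 3 (0.0687) of HcRed, CSC replicate 3 of GFP (0.0663), NNK replicate 1 (0.0614) or 2 (0.157) of HcRed and NNK replicate 1 (0.0651) or 3 (0.0732) of GFP. It was also lost by DESeq2 (adjusted p = 0.136) and without the filter on low counts (0.0557). Of the lists, PSMB8 (-0.83), IRF2 (-0.56), an interferon regulatory factor, IFI6 (-1.43), IFI27 (-2.42) and IFIT1 (-1.02) were lower in GFP and PSME1 (0.22), MICA (0.49) and ULBP2 (0.82) higher, of which DESeq2 did not call PSME1 (adjusted p = 0.0890) or IFIT1 (0.0754), and edgeR did not call IFI6 (0.0551).

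Among the chemicals, BaP went with the clearest change, a higher mean of B2M in each of the 5 populations that had 3 wells under both BaP and DMSO. B2M averaged 3723 CPM under BaP against 3202 CPM under DMSO in NRF2, and every BaP well lay above every DMSO well in NRF2, NRG1, PIK3CA, GFP and FAT1. In NRF2 its wells were at 3686, 3743 and 3739 CPM, in PIK3CA at 3843, 3836 and 3882 CPM and in GFP at 4035, 3896 and 4205 CPM. With population as a covariate over 30 wells the log2 difference was 0.25 (SE 0.02, adjusted p = 3.81e-21). HLA-E rose by 0.38 (SE 0.11, adjusted p = 0.0163) and had a higher mean in 5 of 5 populations, with wells apart in 1. These were 2 of 9 genes, where 9.16% of all genes passed. PSMB8 (0.35), PSME1 (0.17) and PSME2 (0.16), 3 of 5 genes of the immunoproteasome list, and ISG15 (0.54), IFI27 (0.38) and IFIT3 (0.40), 3 of 8 interferon response genes, rose, while CALR (-0.21, lost by DESeq2 with an adjusted p of 0.0512) fell. MICA (0.21) and ULBP2 (0.29) rose. The summed basal markers had a median of 420 CPM in the 19 BaP wells and 556 CPM in the 24 DMSO wells, and their part, and that of the lower totals under BaP, was not tested.

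NNK went with more TAPBP. Its mean was higher than under DMSO in 7 of 7 populations, with wells apart in 3, and the log2 difference over 42 wells was 0.29 (SE 0.06, adjusted p = 0.000810). In HcRed it was at 67.1, 70.6 and 66.8 CPM against 64.2, 62.5 and 60.4 CPM, and in FGFR1 at 77.9, 75.3 and 99.7 CPM against 67.9, 58.7 and 72.1 CPM. B2M was higher by 0.15 (SE 0.05, adjusted p = 0.0455), in 7 of 7 populations and apart in 3. These were 2 of 9 genes, where 7.22% of all genes passed. Without NNK replicate 2 of NRG1, the well that stood apart, the log2 difference of B2M was 0.20 (adjusted p = 5.30e-13), that of TAPBP 0.31 (adjusted p = 3.18e-06), and HLA-E passed as well, while the share of all genes rose to 19.9%. The B2M call was lost in 14 of 42 fits that left out a well (adjusted p from 0.0523 to 0.0827): DMSO replicate 2 of PIK3CA, DMSO replicates 1, 2 and 3 of NRF2, and NNK replicates 2 of HcRed, 1 of GFP, 1 and 2 of FGFR1, 2 and 3 of NRF2, 1 and 3 of NRG1 and 1 and 2 of FAT1. Of the 5 immunoproteasome genes 0 passed in limma and edgeR and 1 in DESeq2, and of the 8 interferon response genes 0 passed in limma, edgeR or DESeq2 (2 without an adjusted p in DESeq2), with 1 of each list under an unadjusted p of 0.05. RFXANK (0.32), a subunit of the RFX factor that binds MHC promoters, MICA (0.39) and ULBP2 (0.30) rose. Of the 7 basal markers 2 were higher and 2 lower under NNK. Their sum had a median of 534 CPM in the 22 NNK wells and 556 CPM in the 24 DMSO wells. The part of these markers, and that of the lower totals under NNK, was not tested.

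Under CSC none of the 9 genes passed in limma, edgeR or DESeq2 (1 without an adjusted p in DESeq2), 1 of them (HLA-E) was under an unadjusted p of 0.05, and 5.81% of all genes passed. The 95% interval of the log2 difference ran from -0.02 to 0.05 for B2M, from -0.02 to 0.24 for TAPBP, from 0.02 to 0.44 for HLA-E and from -0.41 to 0.42 for HLA-B. The interferon response genes IFIT1 (-1.11) and IFIT3 (-0.73) fell, and IFNGR1 (0.37) and ULBP2 (0.29) rose.

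**Figure D4:**
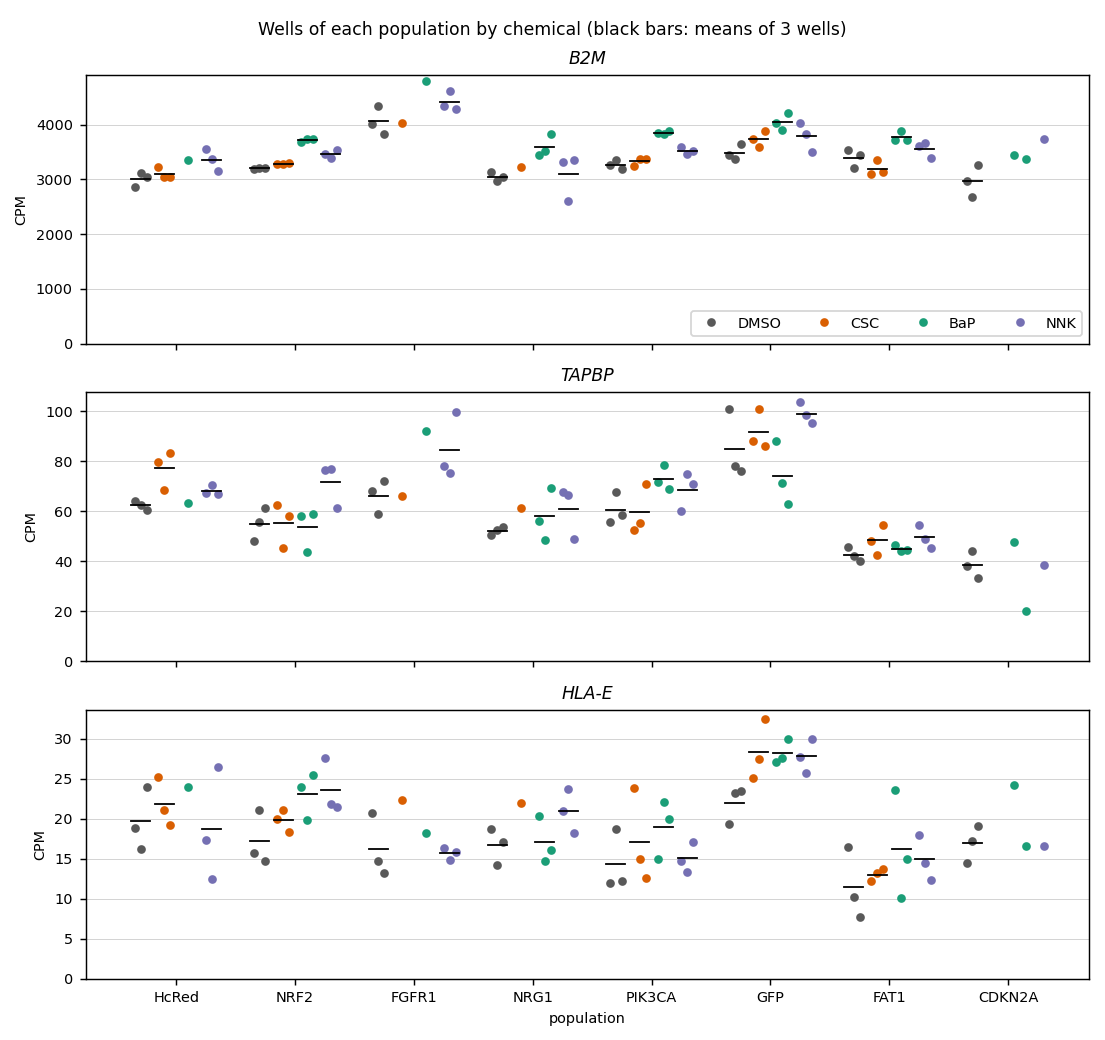
CPM (y axis, from 0) of B2M, TAPBP and HLA-E in the wells of 8 populations (x axis) under DMSO, CSC, BaP and NNK, with bars at means of 3 wells. B2M is higher under BaP than DMSO wherever both have 3 wells, TAPBP is low in the wells of FAT1 and CDKN2A, and 1 NRG1 well under NNK lies at 2610 CPM of B2M.

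Whether a chemical acted differently by population was tested for NRF2 against HcRed (CSC, NNK) and for FAT1 against GFP (CSC, BaP, NNK). Other pairs with 3 wells in each group were not tested in this way. Among them are PIK3CA and HcRed under CSC and NNK, and FGFR1 or NRG1 and HcRed under NNK. No member passed in limma, edgeR or DESeq2 in any of the 5 tests, and in the CSC test of NRF2 DESeq2 gave 8 of the 9 no adjusted p. The share of all genes that passed was 0.231% for the CSC response of NRF2 against HcRed, 0.036% for its NNK response, 0% for the CSC response of FAT1 against GFP (0 genes, with 612 under an unadjusted p of 0.05), 0.054% for its BaP response and 0.018% for its NNK response. At an unadjusted p of 0.05 there was 1 gene of 9 for the CSC and 1 for the BaP response of FAT1, and 0 in the other 3 tests. Both were B2M, with a log2 difference in response of -0.20 (95% interval -0.34 to -0.05, adjusted p = 0.891) under CSC and -0.11 (-0.20 to -0.01, adjusted p = 0.737) under BaP. For TAPBP the intervals reached from -0.38 to 0.45 under CSC, from -0.22 to 0.63 under BaP and from -0.35 to 0.44 under NNK.

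Levels of the 9 genes were set side by side over the 25 groups of 3 wells, as a description without a test, in which the groups share plate positions and their depths. HLA-C went with TAP1 (Pearson r = 0.79) and HLA-B (0.61), and HLA-E with TAPBP (0.65). The highest r of B2M with a heavy chain was 0.19, for HLA-E. Among 3987 genes with a mean count of at least 20, the 5 most like B2M were PSME1 (r = 0.80), MYL6, HDAC1, CSRP2 and COX14, those most like HLA-B were HNRNPD (0.75), PRCP, USP7, STARD7 and BAD, and those most like TAP1 were ANKRD26 (0.86), ACTR3, TSPYL1, PHF3 and TRIP12. NNK replicate 2 of NRG1 is 1 of the wells in these means.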

How the data were processed

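UMI counts per gene were deposited for each well, not normalized. Per the study's methods the authors obtained these counts already quantified: reads had been aligned to RefSeq transcripts of hg19 with BWA aln 0.7.10, and reads with the same UMI and well barcode counted a single time per gene. The authors state no strand setting. Groups came from the sample titles. The 13 wells with 2-digit replicate numbers, in 6 groups, were kept out of the comparisons, because the labels do not say what those numbers mark. The study calls its replicates biological. Whether they came from separate thaws, passages or transductions is not given in the sources used here, so p-values measure the spread between wells.

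Counts were analysed in R 4.3.3 with limma 3.58.1 (voom weights, TMM factors taken from edgeR 4.0.16). Each fit held the groups under comparison and the genes whose mean count exceeded 1, two-sided, with an adjusted p threshold of 0.05. The chemical fits had population as a covariate. Variances were shrunk strongly between genes, with 21.2 or more prior degrees of freedom. For FGFR1 against HcRed under DMSO they were infinite. The SE and p of a gene there thus used a variance shared by all genes, not its own. Alternatives were edgeR's quasi-likelihood test, DESeq2 1.42.0, median-ratio factors, other filters, a replicate block, a single fit over all groups and leaving out each well. The members, lists and named genes were chosen with earlier results of these data known. The named genes were the 9 members, list genes past the threshold and the 5 most correlated genes of HLA-B, B2M and TAP1. Pathway lists were peptide loading, immunoproteasome, class I regulators, interferon gamma receptor and kinases, interferon response and ligands of lymphocyte receptors. Of the list genes, a single gene is not reported here. Scripts were tested on simulated counts. hg19 positions came from GENCODE v44lift37 and promoters from RefSeq, with no conversion between builds. Depth limits precision: the smallest total was 692446 counts.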

Additional observations from a re-analysis of the deposited data

Results flagged for a closer look

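The wells with 2-digit replicate numbers entered no comparison of the report. In 6 cases all such wells of a group lay above all DMSO wells of the same population. B2M was at 3430 and 3501 CPM in the 2 NNK wells of CDKN2A (DMSO 2669 to 3264 CPM). B2M was at 4587 and 4751 CPM in the 2 BaP wells of FGFR1 (DMSO 3833 to 4345 CPM) and at 3381 and 3468 CPM in those of HcRed (DMSO 2867 to 3113 CPM). HLA-F was at 10.1 and 11.2 CPM in the 2 BaP wells of HcRed (DMSO 5.13 to 8.52 CPM). In the 2 CSC wells of NRG1, HLA-F was at 5.99 and 9.23 CPM (DMSO 2.59 to 3.24 CPM) and HLA-C at 21.3 CPM in both (DMSO 13.6 to 18.1 CPM). These differences were not tested.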

How the results depend on the processing

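The measure followed here is how many of the 9 genes passed the threshold in each of 21 comparisons. Under alternatives other than leaving out a well, 128 such counts stayed within 1.5 times the main count and 28 did not. With the 10000 most variable genes the count fell to 0 for NRF2, NRG1 and PIK3CA against HcRed under DMSO and for NRF2 and PIK3CA in their other wells, and to 1 for CDKN2A, BaP and NNK, since in these comparisons that filter does not hold B2M. With edgeR it was 0 for NRG1 under DMSO, 0 for NRF2 in the other wells and 2 for PIK3CA in the other wells. With DESeq2 it was 1 for FGFR1 (HLA-B had no adjusted p), 0 for NRG1, 1 for FAT1 and 1 for GFP against HcRed under DMSO and 0 for NRF2 in the other wells. In a single fit over all groups it was 0 for NRF2, NRG1 and PIK3CA, 1 for FGFR1 and 1 for GFP under DMSO and 0 for NRF2 and PIK3CA in the other wells. With all chemicals together FAT1 had 5 genes past the threshold, GFP 4, PIK3CA 2, FGFR1 1 and NRG1 0. The log2 difference of B2M in NRG1 reversed to -0.0778, in a fit that includes NNK replicate 2 of NRG1. Apart from the dropped B2M and the missing adjusted p, the cause was not tested.

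Leaving out a well moved the count between 1 and 2 for FGFR1, CDKN2A and GFP against HcRed under DMSO, 0 and 1 for NRG1 under DMSO, 1 and 3 for FAT1 under DMSO and for NNK, 0 and 1 for NRF2, 1 and 2 for PIK3CA and 2 and 5 for GFP against HcRed in the other wells. HLA-C, HLA-E, HLA-F and TAPBP of FAT1 in the other wells, TAPBP of FAT1 and CDKN2A under DMSO, and B2M and HLA-E under BaP kept their calls whichever well was left out, and of these HLA-F was lost by DESeq2. B2M also kept its call in FGFR1, NRF2, PIK3CA and GFP against HcRed under DMSO and in FGFR1, PIK3CA and GFP in the other wells. So did TAPBP of GFP against HcRed in the other wells and TAPBP under NNK. The single fit lost B2M of NRF2, PIK3CA and GFP under DMSO and of PIK3CA in the other wells.

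Replicate numbers showed no strong pairing of wells: in 35 pairs of groups the correlations of same-numbered deviations ran from -0.139 to 0.134 (median 0.005), and in 0 pairs were all above 0.1. A cut at 0.1 cannot detect weak pairing. FAT1 wells under CSC, BaP and NNK against FAT1 wells under DMSO gave only positive correlations, from 0.0134 to 0.134. With the replicate block the counts were 2 for FGFR1, 1 for NRF2, NRG1 and PIK3CA, 2 for FAT1, CDKN2A and GFP under DMSO, 0 for CSC, 2 for BaP and 2 for NNK, as without it, and the other comparisons kept their counts too. The number of all genes called moved by over 1.5 times for NRG1 under NNK (13 to 20) and in the tests of response for CSC in NRF2 (26 to 55), NNK in NRF2 (4 to 14), CSC in FAT1 (0 to 3), BaP in FAT1 (6 to 13) and NNK in FAT1 (2 to 4). Over all genes and under DMSO, CDKN2A had 1247 calls by DESeq2 (2067 by limma), FAT1 856 (1570), GFP against HcRed 659 (1202), NRF2 351 (551), PIK3CA 341 (607), NRG1 217 (349) and FGFR1 51 (104), and FGFR1 under NNK had 97 (161). In the single fit GFP against HcRed had 770 calls under DMSO, PIK3CA 303, NRF2 160 and NRG1 69, BaP had 660 (1036 by limma) and CSC 399 (661), and in the other wells PIK3CA had 583 (878), NRF2 437 (714), NRG1 310 and FGFR1 78. With all chemicals together FAT1 had 3695, GFP against HcRed 2557, PIK3CA 1465, NRF2 1197, FGFR1 367 and NRG1 48. The most variable genes gave 544 for BaP and 380 for CSC, the added wells with 2-digit numbers 1649 for BaP, 1392 for NNK (819 by limma) and 1134 for CSC, and no filter 2145 for NNK. With a well left out, the tests of response had 16 to 49 (CSC) and 2 to 13 (NNK) calls for NRF2 and 0 to 7 (CSC), 3 to 17 (BaP) and 1 to 26 (NNK) for FAT1. With all wells they had 0 to 26 calls by limma and 0 to 11 where edgeR, DESeq2, the single fit or another filter moved them by over 1.5 times. TAP1, TAP2, ERAP1 and HLA-F had the fewest UMIs, with medians of 4, 2, 5 and 6 a well.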

Other observations

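In the 2 CSC wells of FGFR1 with 2-digit numbers, HLA-B was at 6.35 and 7.46 CPM, and in the single CSC well with a 1-digit number at 7.76 CPM, below the 13.9 to 21.5 CPM of the DMSO wells. In the 2 NNK wells of CDKN2A with 2-digit numbers, HLA-B (6.08 and 7.25 CPM), HLA-C (10.9 and 12.7 CPM), TAP1 (1.66 and 2.17 CPM) and ERAP1 (2.77 and 2.90 CPM) lay below all DMSO wells of that population, while B2M lay above them. In the 3 CSC wells of CDKN2A with 2-digit numbers TAPBP was at 33.2, 38.3 and 30.6 CPM, overlapping its DMSO wells (33.1 to 43.9 CPM), with 1 well below all of them.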
